A study of Mus musculus with 10 samples.

Results

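The SNF2 family of chromatin remodellers and its complex partners were represented by 41 of the 21101 genes measured in mouse neural stem cells with and without a deletion of Atrx. The 41 genes were chosen by symbol: every symbol that starts with Smarc, every Chd symbol that ends in a number, and a list of ARID, BAZ, INO80 and other remodeller genes, with Atrx itself left out. No measured value entered the choice. Remodellers of this family are ATPases that use ATP hydrolysis to slide, eject or exchange nucleosomes. They work in multi-subunit complexes named BAF (also called SWI/SNF), ISWI, CHD (which includes the NuRD complex) and INO80/SRCAP, and Atrx is itself a member of the family that deposits the histone variant H3.3 together with Daxx. In the nervous system the BAF complex is known to exchange subunits when neural progenitors become neurons, for example the actin-related protein Actl6a (BAF53a) for its neuron-specific relative Actl6b (BAF53b).

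RNA was sequenced from 10 libraries of mouse neural stem cells, all of which were p53-null and had been transduced with IDH1(R132H), a mutant isocitrate dehydrogenase found in gliomas. The 3 Atrx-deleted lines (mA16d#4, mA19d#4 and mA19d#7) and the 2 control lines (Control NSC#1 and Control NSC#2) were each sampled once after 8 days in differentiation medium, which was neural basal medium with B27 and no growth factor, and once in proliferation medium, which held EGF and bFGF at 20 ng/ml. This gave 3 Atrx-deleted differentiation, 3 Atrx-deleted proliferation, 2 control differentiation and 2 control proliferation libraries. How the lines were derived is not stated in the labels, so p-values measure only the spread between these lines. The names mA19d#4 and mA19d#7 share a stem, and whether these lines have a common origin is not stated. The question the design addresses here is whether the levels of these genes differ with Atrx deletion, with the medium, or in their response to the medium.

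Levels are given as TPM (a measure of transcript abundance per length), and differences as log2 differences of TPM + 1. The deposited values had been quantile-normalised, so the libraries share 1 distribution, the depth behind each value is unknown, and some values tie exactly between libraries. Atrx RNA fell in the Atrx-deleted lines, which had 42.8 to 74.0 TPM, against 127 to 163 TPM in the control lines (limma adjusted p = 0.0204 in differentiation and 0.039 in proliferation medium). The 8 neural stem cell markers (Nes, Sox2, Pax6, Vim, Fabp7, Hes1, Prom1 and Msi1) summed to 9902 to 13360 TPM over the 10 libraries. Their levels were unequal: Nes was at 245 to 753 TPM, Sox2 at 364 to 705 TPM, Fabp7 at 2628 to 11021 TPM and Prom1 at 0.937 to 26.0 TPM. The 6 microglial markers summed to 0.344 to 11.3 TPM and the 6 endothelial and mural markers to 0.504 to 6.63 TPM. Of these lists, P2ry12 (microglia) reached 11.2 TPM in 1 library and Acta2 (mural cells) 4.53 TPM, while Cx3cr1, Cdh5 and Cldn5 stayed at or below 0.0354 TPM. The mA19d#7 differentiation library stood apart, with 1412 TPM of the astrocyte gene Gfap against 1.57 to 79.5 TPM in the other libraries, and differences described below that moved by over 1.5 times on leaving it out are also given without it. The sample codes of control and Atrx-deleted libraries carry different number prefixes whose meaning is not given, so genotype and whatever the prefix stands for cannot be told apart. In bulk RNA, fewer cells of a type and less RNA per cell cannot be told apart either.

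Nearly all of these genes were well expressed. Of the 41, 40 passed the filter of at least 1 TPM in at least 2 libraries, and their median mean level was 62.2 TPM, against 26.3 TPM over all 15660 tested genes. A mean of at least 10 TPM was reached by 37 of the 40 (92.5%), against 68.8% of all tested genes. The exceptions were Smarca1, Chd5 and Actl6b. The one gene that was not tested, Smarca5-ps, is annotated as a processed pseudogene of Smarca5 and had 0.00391 to 0.397 TPM. The pair shares sequence, so how reads were divided between Smarca5 and Smarca5-ps is uncertain. The highest mean was that of Chd4, the ATPase of the NuRD complex, at 190.0 TPM, and the lowest tested that of Actl6b at 0.787 TPM. Summed over the 41 genes, the level was 2079 to 2800.1 TPM in the Atrx-deleted differentiation libraries, 2526 to 2916 TPM in the Atrx-deleted proliferation libraries, 2337 to 2338 TPM in the control differentiation libraries and 2706 to 2753 TPM in the control proliferation libraries. The lowest of these sums belonged to the mA19d#7 differentiation library, which also held the lowest value for 13 of the 40 tested genes, where 14.8% of all tested genes had their lowest value, and the highest value for none of them (12.1% of all genes). The mA19d#4 differentiation library held the highest value for 13 of the 40 (12.5% of all genes).

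The median spread between lines was smaller than over all tested genes. The set also had the higher median level (62.2 against 26.3 TPM), and neither this spread nor the intervals given below were compared with genes of matched level. The median SD of log2(TPM + 1) over these genes was 0.319 in the Atrx-deleted differentiation group, where the median over all tested genes was 0.353. It was 0.166 against 0.264 in the Atrx-deleted proliferation group, 0.0629 against 0.141 in the control differentiation group and 0.094 against 0.148 in the control proliferation group.

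**Figure D1:**
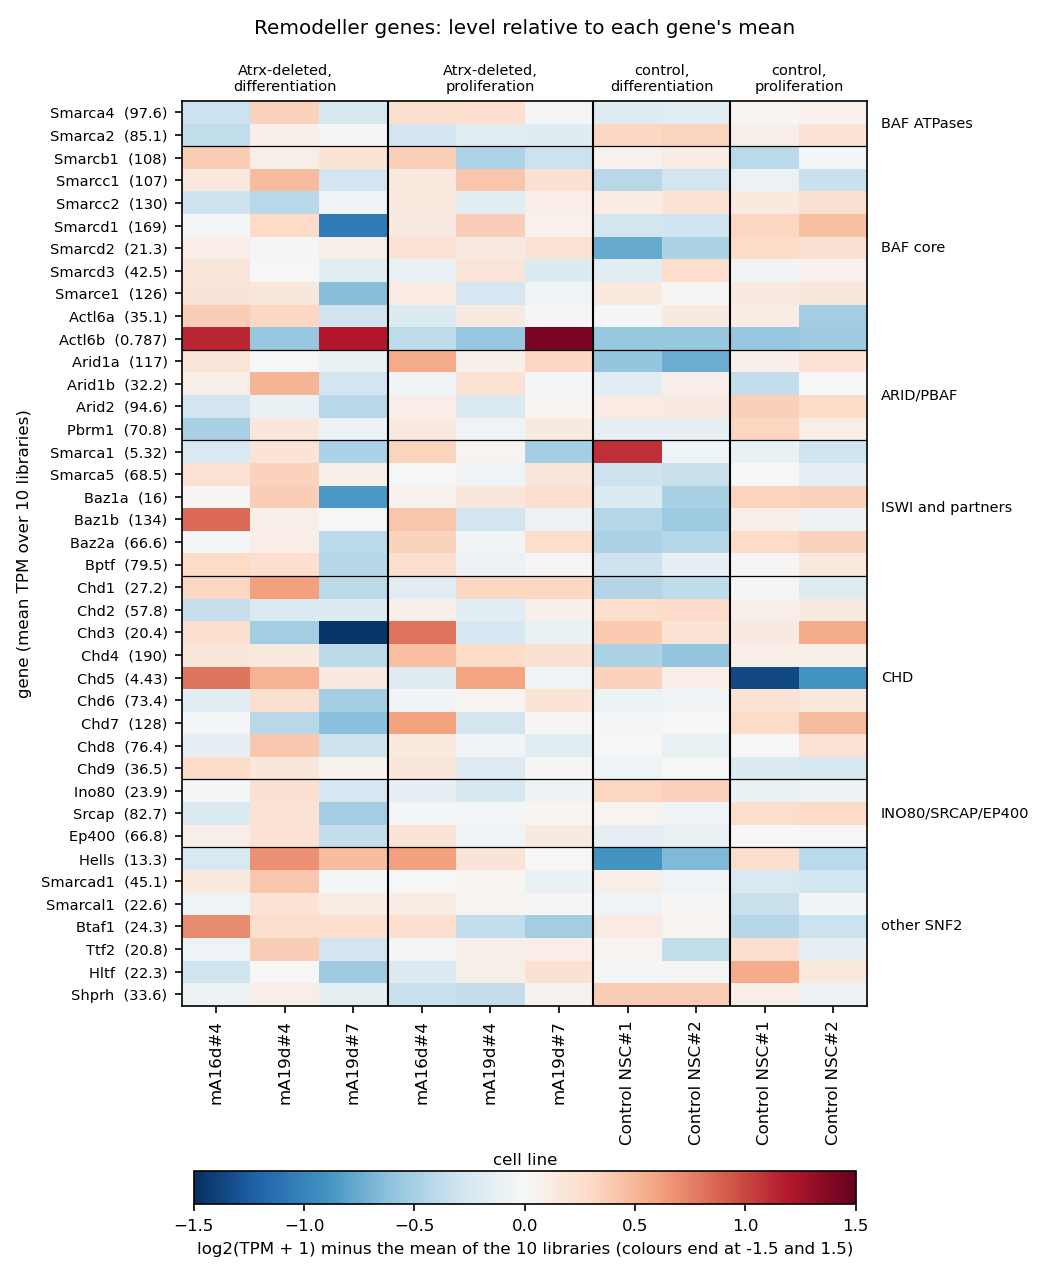
Level of each tested gene in each library, as log2(TPM + 1) minus the gene's mean over the 10 libraries (red higher, blue lower), with rows grouped by complex and the mean TPM in brackets. Most rows are pale; the strongest colours belong to Actl6b, Chd5, Chd3, Smarca1 and Hells, and the mA19d#7 differentiation column holds the lowest value of 13 genes.

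The BAF ATPases came at levels close to each other. Smarca4 (Brg1), the BAF ATPase of most dividing cells, had 77.2, 123 and 81.6 TPM in Atrx-deleted differentiation, 114, 115 and 95.4 TPM in Atrx-deleted proliferation, 84.6 and 86.1 TPM in control differentiation and 98.9 and 101 TPM in control proliferation libraries. Smarca2 (Brm), its alternative, had 64.7, 88.8 and 82.7 TPM in Atrx-deleted differentiation, 68.6, 74.3 and 74.2 TPM in Atrx-deleted proliferation, 104 and 106 TPM in control differentiation and 89.3 and 97.4 TPM in control proliferation libraries. All Smarca2 values of the Atrx-deleted lines lay below all values of the control lines over both media, whereas those of Smarca4 overlapped. The closest values were 88.8 TPM in mA19d#4 after differentiation and 89.3 TPM in Control NSC#1 in proliferation medium. Smarca2 was not called between genotypes (limma adjusted p = 0.181 in differentiation and 0.363 in proliferation medium). How many of all genes separate in this way over both media was not computed. The ISWI ATPases were unequal in level: Smarca5 (Snf2h) ranged over 53.6 to 86.6 TPM and Smarca1 (Snf2l) over 3.20 to 11.8 TPM. Among the CHD ATPases, Chd4 ranged over 124 to 252 TPM, Chd7, a remodeller mutated in CHARGE syndrome, over 79.8 to 189 TPM, Chd8, a gene linked to autism, over 60.5 to 100.2 TPM, and Chd3 over 6.22 to 33.8 TPM. Chd6 ranged over 50.2 to 86.2 TPM, Chd2 over 44.9 to 69.8 TPM, Chd9 over 30.6 to 44.3 TPM and Chd1, which binds methylated histone H3 at active genes, over 19.1 to 40.8 TPM. Of the ATPases that exchange the histone variant H2A.Z, Srcap ranged over 56.8 to 99.9 TPM and Ep400 over 51.6 to 77.2 TPM, while Ino80 ranged over 19.6 to 30.1 TPM.

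Most of the remaining subunits were found in every library; Actl6b is described separately. The BAF core genes Smarcb1, Smarcc2, Smarce1 and Smarcd3 ranged over 76.8 to 138, 95.8 to 151, 79.1 to 141 and 36.4 to 50.8 TPM. Among the ARID subunits, which distinguish BAF from PBAF complexes, Arid1b ranged over 24.4 to 45.7 TPM and Arid2 over 69.5 to 119.8 TPM, and Pbrm1, the polybromo subunit of PBAF, over 49.5 to 87.9 TPM. The ISWI partners Bptf, a subunit of NURF, and Baz1a, a subunit of ACF, ranged over 58.0 to 96.7 and 8.07 to 20.3 TPM. Of the single-subunit relatives, Smarcad1 ranged over 36.5 to 59.6 TPM, the replication-fork enzyme Smarcal1 over 17.6 to 26.1 TPM, the transcription termination factor Ttf2 over 15.8 to 26.8 TPM, and the ubiquitin ligases Hltf and Shprh over 14.8 to 32.4 and 25.5 to 43.3 TPM.

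In proliferation medium no gene of the set passed the test between Atrx-deleted and control lines. With limma over all tested genes and Benjamini-Hochberg adjustment at 0.05, 0 of 40 were called, where 0.46% of all tested genes were. At an unadjusted p under 0.05 there were 3 of 40, against 13.7% of all genes. The median log2 difference was -0.03 over the set and -0.02 over all tested genes, and the median absolute difference was 0.18 against 0.29. The values of the groups did not overlap for 12 of the 40 genes, 6 higher and 6 lower in Atrx-deleted lines, against 38% of all genes (17.8% higher and 20.2% lower). The 95% interval lay within a log2 difference of 1 on either side for 35 of the 40 genes (87.5%), against 49.9% of all genes, so for those a change of 2-fold or more on this scale lay outside the interval.

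On the log2(TPM + 1) scale the largest difference in proliferation medium belonged to Chd5, a CHD remodeller expressed mainly in neurons. Chd5 had 3.40, 6.52 and 3.76 TPM in the Atrx-deleted lines, against 0.949 and 1.67 TPM in the control lines. The groups did not overlap, and the log2 difference of 1.24 (SE 0.373) missed the threshold with a limma adjusted p of 0.188. The gene lies on chromosome 4 (152338651 to 152390194, plus strand, GRCm38), and the sequence before its annotated start is shown because the Chd5 values of the groups stood apart in this medium. The window chr4:152338401-152338650 of RefSeq, build GRCm38.p6, plus strand, is printed 5′ to 3′, with capitals for matches to the GC box GGGCGG on either strand:
Chd5: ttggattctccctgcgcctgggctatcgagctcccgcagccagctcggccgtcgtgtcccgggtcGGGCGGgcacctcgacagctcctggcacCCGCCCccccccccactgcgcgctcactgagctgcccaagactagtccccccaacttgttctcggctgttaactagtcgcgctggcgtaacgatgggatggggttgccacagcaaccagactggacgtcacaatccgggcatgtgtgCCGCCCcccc

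The 3 GC boxes of this window were its only matches among the motifs searched. These were the GC box, the CCAAT box (CCAAT), the TATA box (TATAAA) and E2F sites (TTTCCCGC, TTTCGCGC, TTTGCCGC or TTTGGCGC), each on both strands. RefSeq promoter windows were found for 33 of the 41 genes, with 39 windows of 250 bases in all. A GC box was present in 31 of the 39 (79.5%), against 32.7% of all 32851 windows of that length. A CCAAT box was present in 11 (28.2%), against 33.8%, a TATA box in 2 (5.13%), against 12.4%, and an E2F site in 3 (7.69%), against 1.86%. A match is a run of letters and not a measured binding site.

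Actl6b, the neuronal actin-related subunit, was next in size in proliferation medium. It had 0.142, 0.00391 and 2.99 TPM in mA16d#4, mA19d#4 and mA19d#7, against 0.00666 and 0.0328 TPM in the control lines. In differentiation medium it had 2.25, 0.00720 and 2.42 TPM in the same 3 lines, against 0.00543 and 0.00668 TPM in the control lines. Only mA16d#4 and mA19d#7 reached 1 TPM in any library, and mA19d#4 stayed at the level of the controls, near the floor of the table. Actl6b therefore passed the filter through Atrx-deleted libraries alone, and its tests between genotypes could show only a higher level in that group. The log2 differences of 0.70 in proliferation and 1.15 in differentiation medium were not called (limma adjusted p = 0.706 and 0.388). Their size depended on the scale and on single libraries, with a range over the alternatives of 0.07 to 3.002 in proliferation and 0.37 to 5.82 in differentiation medium. The lowest value in proliferation medium came from leaving out mA19d#7 in that medium, and the highest in each medium from testing the deposited log2 values directly. With 0.1 TPM added in place of 1 TPM, Actl6b (1.84) and not Chd5 (1.71) had the largest difference in proliferation medium, and on the deposited log2 values the 2 genes stood at 3.002 and 1.80. Its progenitor counterpart Actl6a had 44.8, 43.1 and 27.8 TPM in Atrx-deleted differentiation, 29.9, 38.0 and 33.8 TPM in Atrx-deleted proliferation, 34.0 and 38.1 TPM in control differentiation and 37.4 and 23.7 TPM in control proliferation libraries. Actl6a remained the more abundant of the pair in each of the 10 libraries. The start of Actl6b on chromosome 5 lies 1 base after chr5:137553296-137553516 (plus strand, GRCm38.p6), a window shown because Actl6b was close to silent in the controls. Capitals mark CCAAT boxes on either strand:
Actl6b: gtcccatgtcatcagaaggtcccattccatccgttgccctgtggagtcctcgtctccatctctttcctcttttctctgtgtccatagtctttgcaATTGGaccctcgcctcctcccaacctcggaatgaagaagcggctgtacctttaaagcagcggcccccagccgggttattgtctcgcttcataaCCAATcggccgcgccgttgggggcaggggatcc

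Other differences in proliferation medium were small. Smarcc1 (BAF155), a BAF scaffold subunit, had 115, 139 and 122 TPM in Atrx-deleted lines, against 97.6 and 82.4 TPM in control lines (log2 difference 0.47, SE 0.213, limma adjusted p = 0.363). On the lower side, the log2 difference was -0.36 for Smarca2 (adjusted p = 0.363), -0.35 for Arid2 (0.373) and -0.32 for Hltf (0.606), all by limma. None of these passed.

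**Figure D2:**
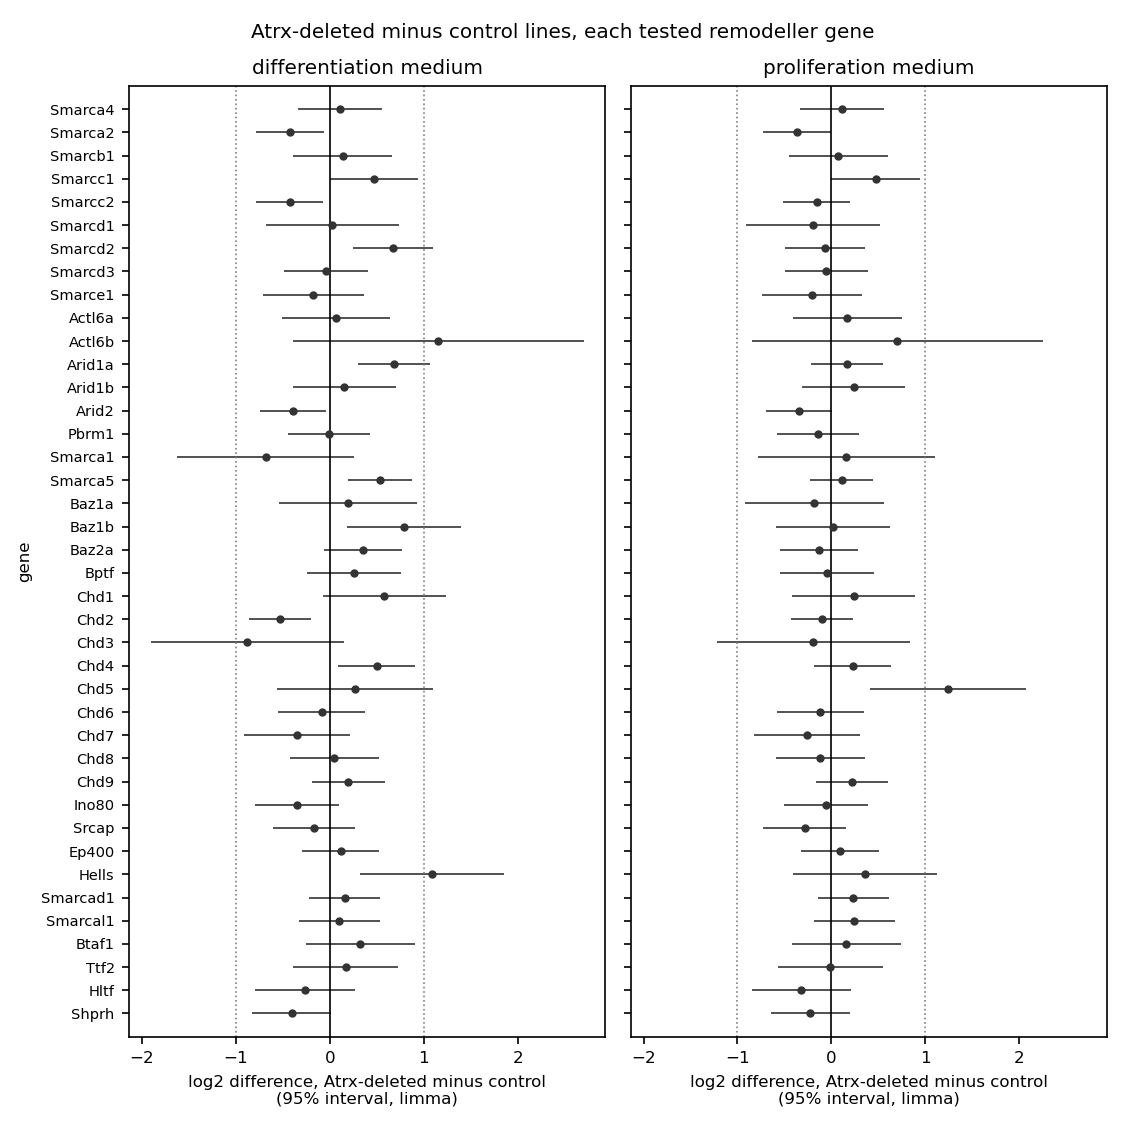
Log2 difference of TPM + 1, Atrx-deleted minus control lines, for each tested gene in differentiation (left) and proliferation medium (right), with 95% intervals from limma and dotted lines at -1 and 1. Most intervals cross 0; the widest is that of Actl6b, and Chd5 is the farthest point to the right in proliferation medium.

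In differentiation medium, too, no gene of the set passed the test between Atrx-deleted and control lines. By limma 0 of 40 genes were called, where 2.89% of all tested genes were. At an unadjusted p under 0.05 there were 10 of 40, against 20.2% of all genes. The median log2 difference was 0.11, against 0.02 over all genes. The values did not overlap for 18 genes, 11 higher and 7 lower in Atrx-deleted lines, against 36.3% of all genes (18.2% higher and 18.1% lower). The interval lay within 1 on either side for 31 of 40 genes (77.5%), against 46.3% of all genes.

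The BAF subunits closest to the threshold were Arid1a and Smarcd2. Arid1a (BAF250a), the DNA-binding subunit that defines the canonical BAF complex, had 129, 113 and 106 TPM in Atrx-deleted lines, against 75.7 and 67.5 TPM in control lines. Its log2 difference was 0.68 (SE 0.173, 95% interval 0.30 to 1.07, limma adjusted p = 0.0653). Smarcd2 (BAF60b), an accessory subunit, had 22.4, 20.4 and 22.1 TPM in Atrx-deleted lines, against 11.9 and 14.7 TPM in control lines, with a log2 difference of 0.67 (SE 0.193, adjusted p = 0.092 by limma). For both genes every Atrx-deleted library lay above both control libraries. Smarcc1 had 116, 145 and 85.2 TPM in Atrx-deleted lines, against 77.8 and 84.8 TPM in control lines (log2 difference 0.47, limma adjusted p = 0.25), and its lowest value came from the mA19d#7 library.

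Among ISWI genes, Smarca5 had 79.2, 86.6 and 71.3 TPM in Atrx-deleted differentiation libraries, against 54.6 and 53.6 TPM in control differentiation libraries. Its log2 difference was 0.53 (SE 0.153, limma adjusted p = 0.0909). Baz1b (WSTF), a Smarca5 partner, had 233, 135 and 128 TPM in Atrx-deleted lines, against 95.4 and 88.0 TPM in control lines, a log2 difference of 0.79 (SE 0.273, adjusted p = 0.146 by limma) in which the mA16d#4 line was the highest. Smarca1 was the ISWI gene with the most negative value. It had 4.11, 5.90 and 3.30 TPM in the Atrx-deleted lines, against 11.8 and 4.72 TPM in Control NSC#1 and Control NSC#2, a log2 difference of -0.68 (limma adjusted p = 0.402) in which Control NSC#2 lay within the range of the Atrx-deleted lines.

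The CHD genes went in both directions in differentiation medium. Chd4 had 208, 204 and 141 TPM in Atrx-deleted lines, against 133 and 124 TPM in control lines (log2 difference 0.50, SE 0.185, limma adjusted p = 0.168). Chd3, its NuRD paralogue, had 22.4, 12.8 and 6.22 TPM in Atrx-deleted lines, against 25.0 and 21.8 TPM in control lines, and its groups overlapped (log2 difference -0.88, SE 0.463, adjusted p = 0.32). The lowest Chd3 value was that of the mA19d#7 library, and without it the log2 difference was -0.44. Chd2, a remodeller linked to childhood epilepsy, had 44.9, 49.1 and 49.3 TPM in Atrx-deleted lines, against 69.1 and 69.8 TPM in control lines, with no overlap (log2 difference -0.53, SE 0.149, adjusted p = 0.0867). Chd5 had 7.69, 6.17 and 4.48 TPM in Atrx-deleted lines, against 5.33 and 4.33 TPM in control lines, and overlapped in this medium (log2 difference 0.27, adjusted p = 0.73; 0.44 without the mA19d#7 library). The adjusted p-values of these genes are from limma.

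Hells (Lsh), a remodeller needed for DNA methylation and expressed in dividing cells, had 10.5, 20.7 and 17.7 TPM in Atrx-deleted differentiation libraries, against 6.25 and 7.51 TPM in control differentiation libraries. Its log2 difference was 1.09 (SE 0.344, limma adjusted p = 0.117), with no overlap. The 8 proliferation markers chosen for this work (Mki67, Top2a, Ccnb1, Cdk1, Mcm2, Mcm5, Pcna and Ccna2) summed to 479 to 1073 TPM in Atrx-deleted differentiation libraries, against 249 to 256 TPM in control differentiation libraries, and 6 of the 8 were called higher. The 8 astrocyte markers (Gfap, Aqp4, S100b, Slc1a3, Aldh1l1, Aldoc, Gja1 and Apoe) summed to 3772 to 6982 TPM in Atrx-deleted and 9016 to 10042 TPM in control differentiation libraries, with 1 of 8, Apoe, called lower. Without Apoe the sums were 2795 to 5531 TPM in Atrx-deleted and 3402 to 3593 TPM in control differentiation libraries, which overlapped, and 5 of the 8 had a positive difference (median log2 difference 0.24). Of 8 tested neuronal markers, 1, Rbfox3, was called lower, and the list summed to 429 to 1218 TPM in Atrx-deleted and 843 to 870.1 TPM in control differentiation libraries. In proliferation medium the sums of the proliferation markers were 887 to 1130.2 TPM in Atrx-deleted and 750.2 to 1189 TPM in control lines, with 0 of 8 called by limma (2 at an unadjusted p under 0.05). Whether these markers have a part in the differences of Hells or of the other remodeller genes in differentiation medium was not tested.

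Leaving out 1 library changed these calls. Without the mA19d#7 differentiation library, 4 genes rose past the threshold in Atrx-deleted against control lines in differentiation medium: Arid1a (log2 difference 0.74, limma adjusted p = 0.0422), Chd4 (0.68, adjusted p = 0.0255), Smarca5 (0.61, adjusted p = 0.0455) and Smarcc1 (0.67, adjusted p = 0.0487). The share of all tested genes called in that fit was 5.97%. In the same fit 0 of 40 were called between genotypes in proliferation medium, where 1.59% of all tested genes were, and 0 of 40 between media in Atrx-deleted lines, where 2.22% were. In that library Gfap stood at 1412 TPM and Vim at 7896 TPM, against 3.49 to 79.5 TPM and 1232 to 1338 TPM in the other 2 Atrx-deleted differentiation libraries; their part in the result was not tested.

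The ratio of 2 paralogues within a library does not depend on a linear scaling of that library. Quantile normalisation is not a linear scaling, so the ratios are not free of that step. The ratio of Smarca4 to Smarca2 was 0.986 to 1.38 in Atrx-deleted differentiation libraries, against 0.809 to 0.813 in control differentiation libraries. It was 1.29 to 1.67 in Atrx-deleted proliferation libraries, against 1.03 to 1.11 in control proliferation libraries. In each medium all Atrx-deleted libraries lay above both controls. The same held for Smarcc1 over Smarcc2, with 0.697 to 1.51 in Atrx-deleted and 0.560 to 0.572 in control differentiation libraries, and 0.810 to 1.21 in Atrx-deleted and 0.547 to 0.689 in control proliferation libraries. The ratio of Arid1a to Arid1b was 2.46 to 4.09 in Atrx-deleted and 2.01 to 2.70 in control differentiation libraries, which overlapped. That of Chd4 to Chd3 was 9.29 to 22.7 in Atrx-deleted and 5.31 to 5.69 in control differentiation libraries, and that of Smarca5 to Smarca1 was 14.7 to 21.6 in Atrx-deleted and 4.62 to 11.4 in control differentiation libraries. In proliferation medium the last 3 ratios overlapped between genotypes: Arid1a to Arid1b was 3.23 to 5.48 in Atrx-deleted and 4.17 to 4.91 in control libraries, Chd4 to Chd3 was 7.48 to 14.3 in Atrx-deleted and 7.01 to 9.49 in control libraries, and Smarca5 to Smarca1 was 10.4 to 23.9 in Atrx-deleted and 14.9 to 15.9 in control libraries. The ratio of Smarcd1 to Smarcd2 overlapped in both media, with 3.497 to 9.80 in Atrx-deleted and 8.99 to 11.2 in control differentiation libraries, and 7.00 to 9.20 in Atrx-deleted and 8.02 to 9.05 in control proliferation libraries. That of Smarcd1 to Smarcd3 overlapped in differentiation medium, with 2.06 to 4.70 in Atrx-deleted and 2.60 to 3.56 in control libraries, and was lower in Atrx-deleted proliferation libraries, at 4.37 to 4.67, against 4.94 to 5.04 in control proliferation libraries. These ratios were compared by their ranges only, and how often ratios of other gene pairs separate in this way was not computed. Among single genes, the values of the genotypes did not overlap for 36.3% of all tested genes in differentiation and 38% in proliferation medium. A ratio shows unequal levels of 2 genes and not which of them differed.

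**Figure D3:**
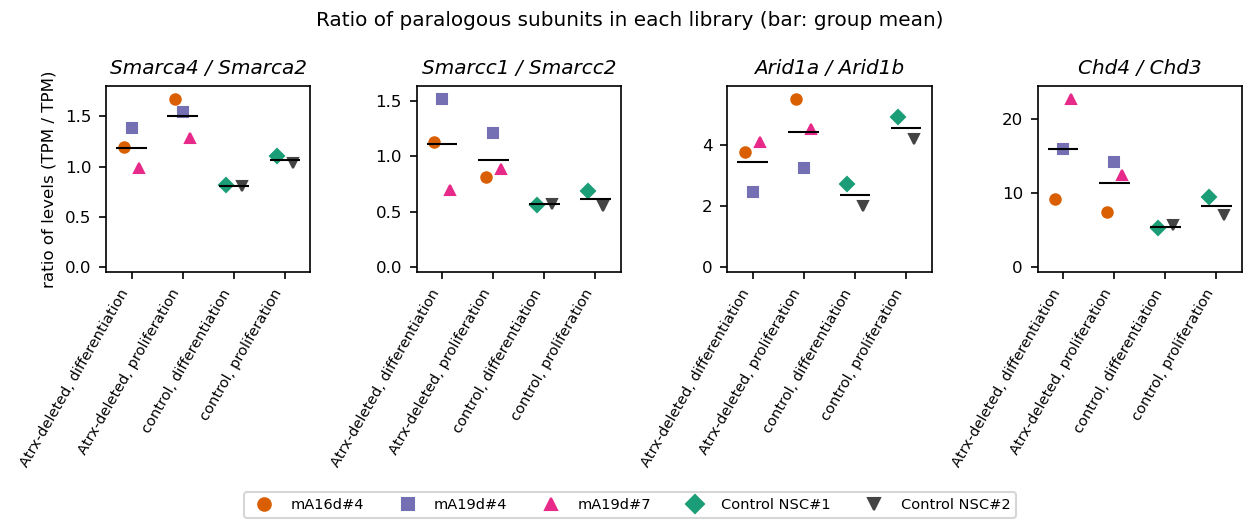
Ratio of the TPM of 2 paralogous subunits in each library (points, by cell line) with the group mean (bar), for 4 pairs. For Smarca4 over Smarca2 and Smarcc1 over Smarcc2 the 3 Atrx-deleted points of each medium lie above the 2 control points of that medium.

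Between media, 2 of the 40 genes were called in control lines, both lower after differentiation, a share near that of all tested genes (4.51%). Arid1a had 75.7 and 67.5 TPM in Control NSC#1 and Control NSC#2 after differentiation, against 119.7 and 131.87 TPM in the same lines in proliferation medium. The means were 71.6 ± 5.78 and 126 ± 8.62 TPM (SD, n = 2 each), and the log2 difference was -0.80 (SE 0.189, 95% interval -1.23 to -0.38, limma adjusted p = 0.0422). Smarcd2 had 11.9 and 14.7 TPM after differentiation, against 25.3 and 24.6 TPM in proliferation medium, with means of 13.3 ± 1.98 and 25.0 ± 0.514 TPM (SD, n = 2 each) and a log2 difference of -0.87 (SE 0.211, 95% interval -1.34 to -0.40, limma adjusted p = 0.0466). The count of 2 of 40 stands beside a background of 4.51% of all tested genes, 2.56% lower. At an unadjusted p under 0.05 there were 5 of 40, against 19.9% of all genes. The median log2 difference of the set was -0.15, against -0.01 over all genes, and the values did not overlap for 29 genes, 10 higher and 19 lower after differentiation, against 61.3% of all genes (29.6% higher and 31.6% lower).

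Both calls were close to the threshold. They use the same control differentiation libraries as the Arid1a and Smarcd2 differences between genotypes in that medium, so these are not independent. With the cell line as a block, 0 of 40 genes were called (Arid1a adjusted p = 0.064, Smarcd2 adjusted p = 0.0987 by limma). The count was also 0 when any 1 control library, or the mA19d#7 proliferation library, was left out. Without the mA19d#7 differentiation library, which enters through the shared estimate of spread, 5 genes were called lower, Arid1a, Smarcd2, Baz2a, Chd4 and Smarcd1, where 9.24% of all genes were called. The 8 proliferation markers summed to 249 to 256 TPM after differentiation in these lines, against 750.2 to 1189 TPM in proliferation medium, with 5 of 8 called lower. The 8 astrocyte markers summed to 9016 to 10042 TPM after differentiation, against 1966 to 2665 TPM in proliferation medium, with 2 of 8 called higher. Without Apoe these sums were 3402 to 3593 TPM after differentiation, against 1606.5 to 1911 TPM in proliferation medium. Of the 8 astrocyte markers, 5 had a positive and 3 a negative difference. Of the 8 tested neuronal markers 1 was called higher and of the 8 neural stem cell markers 1 was called lower, both by limma. The neural stem cell markers summed to 13152 to 13360 TPM after differentiation, against 9902 to 10807 TPM in proliferation medium. These sums follow Fabp7, the largest of them, with 11021 TPM in both libraries after differentiation, against 5423.5 TPM in both in proliferation medium. Nes was lower after differentiation, at 245 and 284 TPM against 642 and 532 TPM. So was Vim, at 1324 and 1451 TPM against 4185 and 3336 TPM. Of these 8 markers, 4 had a positive and 4 a negative difference. Whether these markers have a part in the Arid1a and Smarcd2 values was not tested.

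Arid1a is encoded on chromosome 4 (133679008 to 133756769, minus strand, GRCm38) and Smarcd2 on chromosome 11 (106263179 to 106272972, minus strand). RefSeq lists 2 starts for Arid1a in build GRCm38.p6. The windows before them are shown because Arid1a was called and because they differ in composition. The first, chr4:133756770-133757019, precedes the gene, and the second, chr4:133753986-133754235, lies inside it and overlaps no annotated exon. Both are on the minus strand and printed 5′ to 3′, with capitals for GC boxes (GGGCGG on either strand) and for the E2F letters TTTCCCGC, which overlap the last GC box of the second window:
Arid1a first start: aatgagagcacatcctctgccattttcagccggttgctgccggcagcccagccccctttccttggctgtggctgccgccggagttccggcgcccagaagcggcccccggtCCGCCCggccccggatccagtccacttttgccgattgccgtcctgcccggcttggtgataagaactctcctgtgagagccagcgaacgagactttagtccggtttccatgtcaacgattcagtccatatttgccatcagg
Arid1a second start: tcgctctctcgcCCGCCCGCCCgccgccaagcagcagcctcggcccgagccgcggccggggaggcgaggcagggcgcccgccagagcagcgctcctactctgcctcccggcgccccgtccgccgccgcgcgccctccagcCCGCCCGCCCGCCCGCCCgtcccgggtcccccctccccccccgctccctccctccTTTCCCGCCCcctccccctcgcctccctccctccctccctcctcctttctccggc

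The first window held 1 GC box, 18 CpG and 61.2% G + C. The second held 7 GC boxes, counted with overlaps, 33 CpG and 81.6% G + C, against medians of 6 CpG and 52.4% over all windows. Which start the transcripts of these cells used is not shown by gene-level values.

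Other genes of the set differed between media in control lines without passing the test. Chd5 had 5.33 and 4.33 TPM after differentiation, against 0.949 and 1.67 TPM in proliferation medium, with no overlap (log2 difference 1.35, SE 0.408, limma adjusted p = 0.0911). The same control proliferation values enter the Chd5 difference between genotypes in that medium and its interaction, so these are not independent. Baz2a (TIP5), the ISWI partner that silences ribosomal RNA genes, had 46.4 and 47.9 TPM after differentiation, against 80.4 and 82.9 TPM in proliferation medium (log2 difference -0.78, adjusted p = 0.0611). Chd4 had 133 and 124 TPM after differentiation, against 197 and 197 TPM in proliferation medium, where the pair of values was equal (log2 difference -0.62, adjusted p = 0.115). Smarcd1 (BAF60a) had 133 and 131.96 TPM after differentiation, against 203 and 223 TPM in proliferation medium (log2 difference -0.68, adjusted p = 0.33). Smarca1 and Btaf1, a remodeller of the TATA-binding protein, had log2 differences of 0.72 and 0.45 (adjusted p = 0.446 and 0.434), and the Smarca1 values of the media lay at 11.8 and 4.72 TPM after differentiation and 4.57 and 3.86 TPM in proliferation medium.

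In the Atrx-deleted lines no gene of the set was called between media, where 0.083% of all tested genes were called. At an unadjusted p under 0.05 there was 1 of 40, Btaf1, against 14.8% of all genes. Values did not overlap for 4 genes, Btaf1 higher and Smarcd2, Chd4 and Chd2 lower after differentiation, against 16.5% of all genes (8.65% higher and 7.85% lower). Btaf1 had 38.9, 28.3 and 28.0 TPM after differentiation, against 28.0, 18.0 and 16.1 TPM in proliferation medium, in mA16d#4, mA19d#4 and mA19d#7. It was higher after differentiation within each line (log2 difference 0.62, SE 0.234, limma adjusted p = 0.266).

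Neither of the genes called lower in the control lines was called in the Atrx-deleted lines. Arid1a had 129, 113 and 106 TPM after differentiation, against 167, 119.8 and 141 TPM in proliferation medium (log2 difference -0.29, SE 0.155, limma adjusted p = 0.414). Smarcd2 had 22.4, 20.4 and 22.1 TPM after differentiation, against 24.3, 22.8 and 24.3 TPM in proliferation medium (log2 difference -0.13, SE 0.172, adjusted p = 0.768). Chd3 had 22.4, 12.8 and 6.22 TPM after differentiation, against 33.8, 15.7 and 17.5 TPM in proliferation medium (log2 difference -0.73, adjusted p = 0.446). Chd7 had 121, 92.5 and 79.8 TPM after differentiation, against 189, 102 and 126 TPM in proliferation medium (-0.47, adjusted p = 0.366), and Smarcd1 had 160.0, 199.6 and 77.3 TPM after differentiation, against 179, 209.8 and 170.1 TPM in proliferation medium (-0.45, adjusted p = 0.503). Chd3, Chd7 and Smarcd1 were lower after differentiation in each of the 3 lines, but without the mA19d#7 differentiation library the log2 differences were -0.30 for Chd3 and -0.05 for Smarcd1. The log2 difference was 0.37 for Chd5 and 0.43 for Actl6b (limma adjusted p = 0.652 and 0.794), and that of Actl6b was 0.13 without this library.

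The response to the medium was not shown to differ between the genotypes for any gene of the set. By the limma interaction test (the response of the Atrx-deleted lines minus that of the control lines) 0 of 40 were called, where 0.00639% of all tested genes were, and the lowest adjusted p was 0.614. Smarcd2 alone had an unadjusted p under 0.05, against 7.02% of all genes. Its interaction was 0.74 (SE 0.272, 95% interval 0.13 to 1.34). The other large values were 0.77 for Baz1b, 0.73 for Hells, -0.98 for Chd5, -0.84 for Smarca1, -0.69 for Chd3 and 0.51 for Arid1a, with adjusted p-values from 0.739 to 0.886. Without the mA19d#7 differentiation library the Chd3 value was -0.25.

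Line by line, 7 genes (Arid1a, Smarcd1, Smarcd2, Smarcc2, Chd4, Chd7 and Hltf) were lower after differentiation in all 5 lines, and 4 (Smarcb1, Smarcad1, Chd9 and Btaf1) were higher in all 5. These are 17.5% and 10% of the 40 tested genes, against 10.3% and 11.2% of all tested genes. Smarcd2 shows how unequal such differences were: within the Atrx-deleted lines its log2 differences between media were -0.11, -0.16 and -0.13, against -1.03 and -0.71 in the control lines. For Arid1a they were -0.37, -0.09 and -0.42 in the Atrx-deleted lines and -0.65 and -0.96 in the control lines. Baz1b was higher after differentiation in each Atrx-deleted line (0.43, 0.35 and 0.07) and lower in each control line (-0.52 and -0.45). Chd2 had the opposite pattern, with -0.43, -0.06 and -0.29 in Atrx-deleted lines and 0.19 and 0.15 in control lines. Patterns of these 2 kinds were found in 2.46% and 1.89% of all tested genes. Neither of the last pair passed the interaction test (limma adjusted p = 0.746 and 0.743), and the other 27 tested genes had lines of one genotype in both directions.

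**Figure D4:**
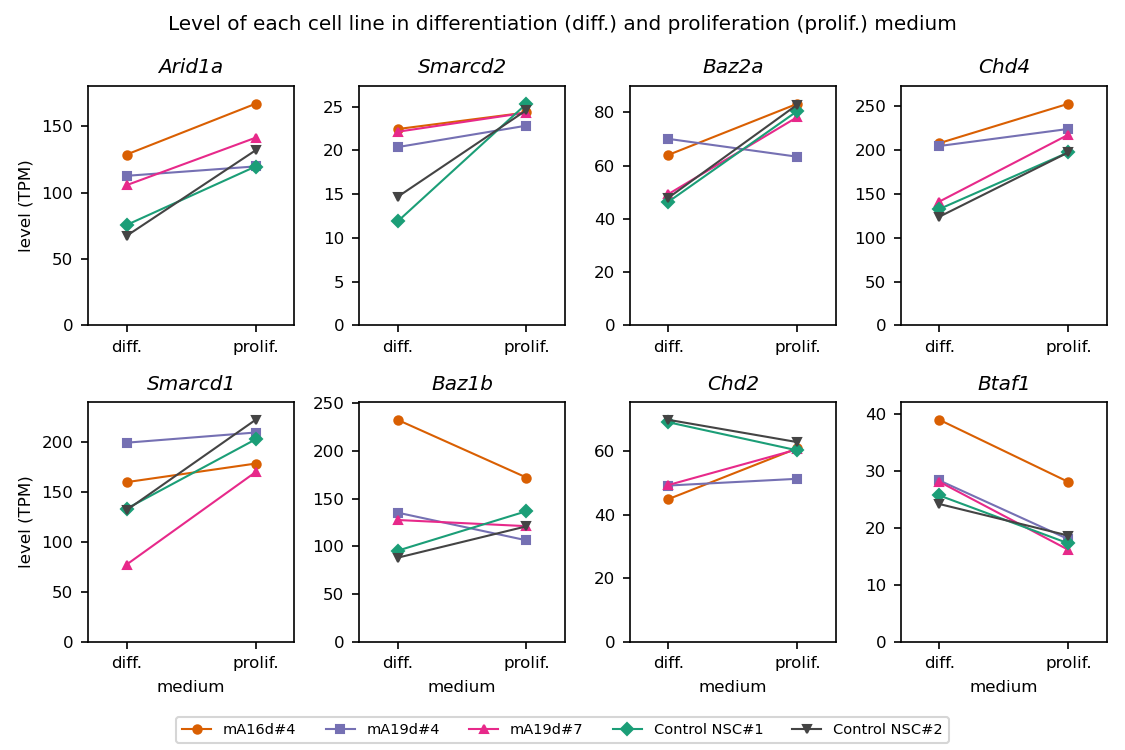
TPM of 8 genes in differentiation (left) and proliferation medium (right), with a line for each cell line. Smarcd2 lies at 11.9 and 14.7 TPM in the control lines after differentiation and at 20.4 to 25.3 TPM in the other libraries; Baz1b and Chd2 slope in opposite directions in Atrx-deleted and control lines.

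The subunits known to be exchanged between progenitors and neurons showed no common pattern. Of the neuron-type BAF subunits other than Actl6b, Dpf1 (BAF45b) had 23.1, 26.9 and 17.2 TPM in Atrx-deleted differentiation, 15.6, 17.8 and 12.2 TPM in Atrx-deleted proliferation, 14.8 and 18.1 TPM in control differentiation and 10.1 and 8.46 TPM in control proliferation libraries. In both genotypes its differentiation value was higher than its proliferation value within each line. Ss18l1 (CREST) had 20.5, 22.6 and 20.4 TPM in Atrx-deleted differentiation, 20.9, 20.9 and 18.5 TPM in Atrx-deleted proliferation, 12.5 and 21.2 TPM in control differentiation and 12.8 and 9.57 TPM in control proliferation libraries. Its progenitor counterpart Ss18 had 106, 95.6 and 93.8 TPM in Atrx-deleted differentiation, 96.4, 91.8 and 109 TPM in Atrx-deleted proliferation, 129 and 127 TPM in control differentiation and 153 and 147 TPM in control proliferation libraries. In each medium the Ss18 values of the Atrx-deleted lines lay below those of the control lines (limma adjusted p = 0.167 in differentiation and 0.105 in proliferation medium). The progenitor-type Dpf2 went the other way in differentiation medium, with 101, 147 and 100 TPM in Atrx-deleted lines, against 78.1 and 80.8 TPM in control lines. In proliferation medium Dpf2 overlapped, with 124, 105 and 82.3 TPM in Atrx-deleted lines, against 83.5 and 94.5 TPM in control lines. Dpf3 (BAF45c) ranged over 6.17 to 22.2 TPM and the progenitor-type Phf10 (BAF45a) over 54.9 to 75.5 TPM. None of these genes was called in any of the 5 comparisons. Of the neuronal markers, Map2 ranged over 358 to 903 TPM and Tubb3 over 50.1 to 372 TPM. Rbfox3 reached at most 12.7 TPM, Snap25 3.38 TPM and Stmn2 0.324 TPM. How many mature neurons these libraries held was not measured.

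**Figure D5:**
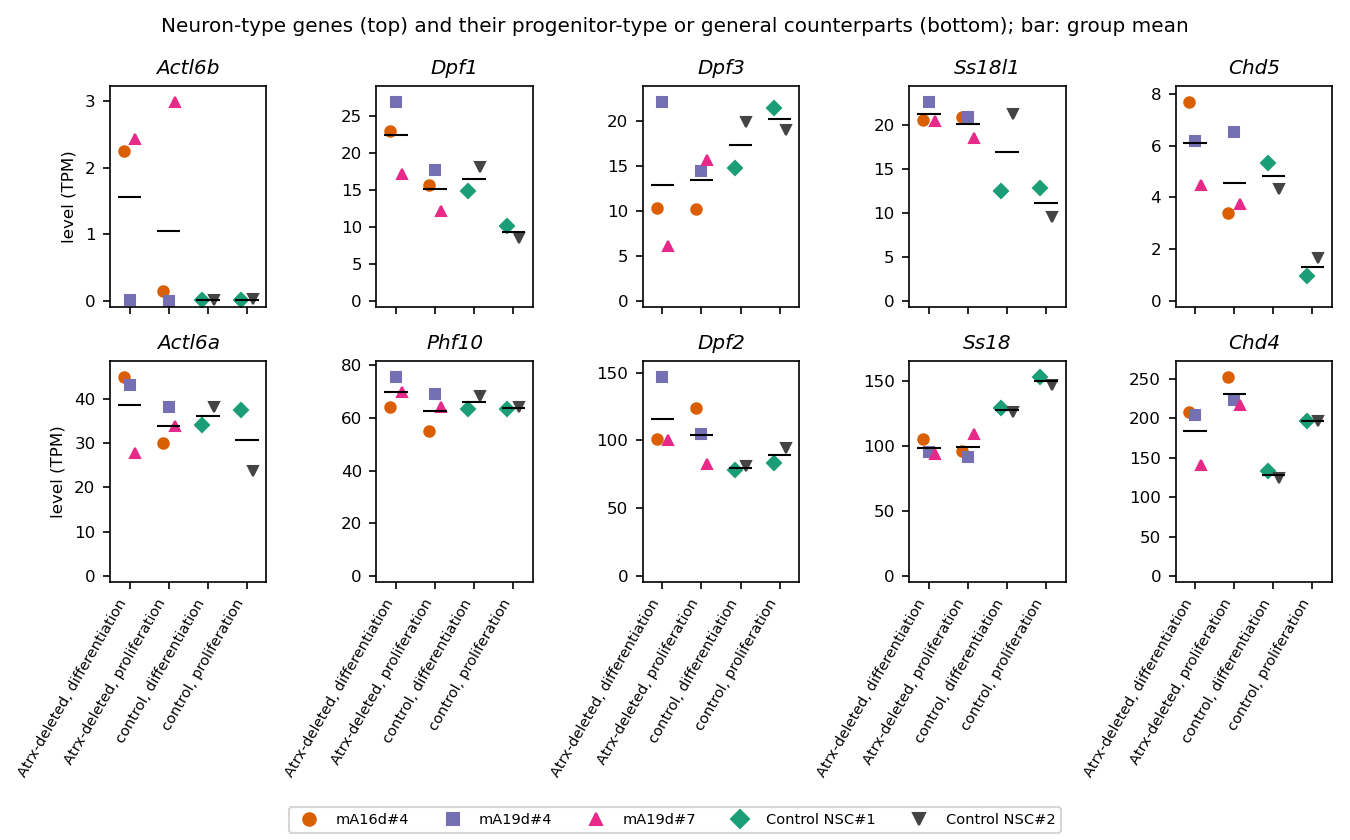
TPM of neuron-type genes (top row) and progenitor-type or general counterparts (bottom row) in each library (points, by cell line), with group means as bars. Actl6b is above 1 TPM in 3 libraries, all Atrx-deleted, while Actl6a lies between 23.7 and 44.8 TPM in every library.

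Genes of the same complexes outside the set were tested in the same fits. Of 66 tested partner genes (BAF, ISWI, NuRD and INO80/SRCAP/TIP60 subunits and further SNF2 enzymes), 0 were called between Atrx-deleted and control lines in proliferation medium (0.46% of all tested genes), 0 in differentiation medium (2.89%), 0 between media in Atrx-deleted lines (0.083%), 0 in the interaction (0.00639%) and 1 between media in control lines (4.51%). At an unadjusted p under 0.05 the counts were 9 in proliferation medium (13.7% of all tested genes), 10 in differentiation medium (20.2%), 5 between media in Atrx-deleted lines (14.8%), 6 in the interaction (7.02%) and 11 between media in control lines (19.9%). The gene that was called is Ercc6l (PICH), an SNF2 enzyme that works on mitotic chromosomes. It had 2.89 and 5.22 TPM in control lines after differentiation, against 35.1 and 25.3 TPM in proliferation medium, and fell by 2.65 on the log2 scale (SE 0.408, limma adjusted p = 0.00979). The call was lost when Control NSC#1 in proliferation medium, or either control library after differentiation, was left out. In the Atrx-deleted lines it had 6.84, 18.0 and 10.3 TPM after differentiation, against 17.8, 19.1 and 18.9 TPM in proliferation medium. Rad54l, a recombination enzyme of the same family, had 11.6, 9.06 and 18.6 TPM in Atrx-deleted differentiation libraries, against 3.85 and 4.51 TPM in control differentiation libraries, and was not called (log2 difference 1.39, SE 0.325, limma adjusted p = 0.0515). Rad54l was called higher under 4 alternatives: with 0.1 TPM added, with a filter of 5 TPM, with robust estimation and without the mA19d#4 differentiation library.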

How the data were processed

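The values came from a single deposited table of 21101 genes in 10 libraries, which the authors gave as log2 values of TPM. Per the labels' protocols, RNA was prepared with RNeasy Mini and TruSeq RNA kits, and per the submitters' processing notes STAR aligned the reads to mm10. No source used here names the versions, the annotation or the tool behind the TPM values. Sorted, the 10 columns are identical, which shows quantile normalisation before deposit: a change in total RNA cannot be seen, and depth and counting error are unknown. The lowest value is -8, held by 1213 genes in each library.

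The design had assumed linear TPM. The deposited log2 values were therefore back-transformed, 1 TPM was added, and the log2 of the sum was tested with limma (version 3.58.1, in R 4.3.3, trend option on), a scale on which differences of low genes come out too small. A gene was tested if at least 2 libraries reached 1 TPM, which left 15660 genes. The model had 4 group means and 6 residual degrees of freedom. P-values of each of the 5 comparisons were adjusted by Benjamini-Hochberg across these genes, with a threshold of 0.05. The fit was first tested on simulated data. Samples were grouped by their titles, which name each line in both media. The same line therefore pairs the libraries: deviations from the group mean correlated between media with r = 0.159 for mA16d#4, 0.404 for mA19d#4, -0.194 for mA19d#7 and 0.0624 for the control lines. Alternatives were other pseudocounts, filters, variance models and scaling, the compared groups alone, the line as a block and each library left out; testing the deposited log2 values directly was added after seeing the data.

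The genes, lists and tests were chosen with earlier results of these data known. Genes named with values were those past the threshold, the 3 largest differences of each direction in each comparison, and a fixed list of catalytic and paired subunits. Others named for not overlapping or for being called under an alternative were picked after their values were seen. Positions are from GENCODE M21 and promoter windows from RefSeq (GRCm38.p6), trimmed to bases outside annotated exons; the Smarcd2 window overlaps an exon and is not shown. The oligodendrocyte-lineage marker list is not reported here.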

Additional observations from a re-analysis of the deposited data

How the results depend on the processing

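No difference that was called in any fit changed its sign under an alternative. Among differences that were not called, the sign changed under at least 1 alternative for 9 of 40 genes between genotypes in proliferation medium, 12 in differentiation medium, 14 between media in Atrx-deleted lines, 6 in control lines and 21 in the interaction. The counts of 0 of 40 for Atrx-deleted against control lines in proliferation medium, for the media in Atrx-deleted lines and for the interaction were the same under every alternative run, including each library left out (0 to 0). For Atrx-deleted against control lines in differentiation medium the count was 2 without a filter on low values (Smarcd2 higher and Chd2 lower, limma adjusted p = 0.0483 and 0.0453), and 0 to 4 with each library left out, where 4 came from leaving out the mA19d#7 differentiation library. For the media in control lines, where 2 genes were called, the count was 1 without a filter and 1 without the variance trend (Smarcd2 each time), 4 with only the compared groups fitted (Arid1a, Chd4, Baz2a and Smarcd1), 0 with the cell line as a replicate block, and 0 to 5 with each library left out. The block changed no other of these counts. Without the mA19d#7 differentiation library, 5.97% of all tested genes were called between genotypes in differentiation medium. Between media in control lines that fit called 9.24%. The shares of all genes called under the other settings are not given here, so these counts do not set the members apart from all genes. The cause of the shifts in the counts was not tested. Some settings also changed the number of libraries or of genes, and the part of that change was not tested either. With 2 control lines, a lone remaining control library was assumed to vary like the other groups. The spread was estimated in common although it was larger among Atrx-deleted than among control lines, and how this affects the calls was not tested.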

Other observations

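Bcl11a, a BAF subunit and transcription factor of the nervous system, was the partner gene with the widest difference between lines. It had 0.0776, 20.0 and 0.0327 TPM in mA16d#4, mA19d#4 and mA19d#7 after differentiation and 2.11, 15.5 and 3.42 TPM in the same lines in proliferation medium, against 0.00544 and 0.142 TPM in control differentiation and 0.282 and 0.00702 TPM in control proliferation libraries. The mA19d#4 line was thus the high one for Bcl11a and the low one among Atrx-deleted lines for Actl6b. Bcl11a, too, passed the filter through Atrx-deleted libraries alone, so its tests between genotypes could show only a higher level in that group. Neither comparison of genotypes called Bcl11a (limma adjusted p = 0.538 in differentiation and 0.397 in proliferation medium).

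Without the mA19d#7 differentiation library, 5 partner genes were called between media in control lines, 4 lower and 1 higher after differentiation, where 9.24% of all tested genes were called. The 4 lower were Ercc6l, Rad54l, the fork-remodelling enzyme Zranb3 and H2afz, which encodes the histone variant that SRCAP and EP400 deposit, and the higher one was the NuRD subunit Mbd3. In the same fit Ruvbl1, an ATPase of the INO80, SRCAP and TIP60 complexes, was called higher in Atrx-deleted than in control lines in proliferation medium (1.59% of all tested genes called), H2afz was called higher in Atrx-deleted lines in differentiation medium (5.97%), and Zranb3 was called lower after differentiation in the Atrx-deleted lines (2.22%).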
